A study of Mus musculus with 2 samples.

Results

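The integrated stress response genes described here are the transcription factor gene Atf4 and genes that its protein is known to switch on: Atf5, Ddit3, Trib3, Asns, Psat1, Phgdh, Chac1, Sesn2 and Ppp1r15a. They were taken by symbol, 10 of 18193 genes with a probe set (a group of short probes for one transcript) of their own on the array. The annotation gave these symbols to 22 of 45101 probe sets. Of these, 20 carried 1 symbol, and 2 named Phgdh together with a predicted gene and were not assigned. Of the 10 genes, 9 were measured, meaning that the higher of their 2 intensities on the brightest probe set reached 7.38, the median of all values on both arrays. The rule used the symbols of the genes and none of their values, but the genes were chosen with earlier results of these data known.

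The livers came from male WT C57BL/6J mice, an inbred laboratory strain, housed individually from 8 weeks of age and 5 months old at collection. The AL group ate ad libitum for 12 weeks. The CR group received 20% less food in the first week and 40% less in the following 11 weeks. For each diet the RNA of 3 livers was combined into 1 pool and run on 1 Affymetrix array. Neither pool was repeated, so the spread between mice is unknown, no test was possible, and every difference compares these pools.

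In the integrated stress response, kinases that sense ER stress, amino acid shortage, viral RNA or heme shortage phosphorylate the translation initiation factor eIF2. Most translation then slows, while the mRNA of ATF4 is translated more through its upstream reading frames. ATF4 pairs with C/EBP proteins and switches on genes for amino acid synthesis and uptake, for redox control and for ending the response itself. An array reads mRNA, so ATF4 protein and eIF2 phosphorylation were not measured.

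ATF4 and its C/EBP partners bind a short element, the C/EBP-ATF response element, whose core was searched as TGATGNAA on both strands, with N any base. Promoters of 300 bases, from 250 bases before the start of transcription to 50 bases after it, came from RefSeq (build GRCm38.p6) and were found for all 10 genes, which had 12 of them. The core was found in 3 of the 10 genes, Asns, Chac1 and Trib3, against 4.51% of all 27025 genes with such a promoter (3.97% of 32851 promoters). Whether the core bears on the differences between the pools was not tested. The sequences that hold it are shown for Asns, Chac1 and Trib3. For Asns and Chac1 these are the 250 bases before the start, and for Trib3 a stretch of 30 bases around the match. All are written 5′ to 3′ on the gene's strand, with the match in capitals. They lie at chr6:7693210-7693459 (minus strand) for Asns, chr2:119350992-119351241 (plus strand) for Chac1 and chr2:152344028-152344057 (minus strand) for Trib3.
Asns: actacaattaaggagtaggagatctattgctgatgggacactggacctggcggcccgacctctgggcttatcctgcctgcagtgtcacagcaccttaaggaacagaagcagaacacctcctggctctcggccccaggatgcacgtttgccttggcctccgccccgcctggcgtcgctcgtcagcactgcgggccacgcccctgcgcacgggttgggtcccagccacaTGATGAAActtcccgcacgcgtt
Chac1: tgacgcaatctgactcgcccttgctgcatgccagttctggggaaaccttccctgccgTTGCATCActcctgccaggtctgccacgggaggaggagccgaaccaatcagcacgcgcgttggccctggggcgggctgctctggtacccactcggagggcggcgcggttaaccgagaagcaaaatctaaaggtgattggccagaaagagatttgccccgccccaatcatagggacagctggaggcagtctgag
Trib3: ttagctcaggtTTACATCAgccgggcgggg

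The Asns match lay on the gene's own strand, from 23 to 16 bases before the start. The Chac1 match read TGATGCAA on the opposite strand, from 193 to 186 bases before the start, and the Trib3 match read TGATGTAA on the opposite strand, at bases 15 to 22 of the transcript. A looser core, TGNTGNAA, which includes the TGATGNAA matches and was chosen after the sequences were seen, occurred in 6 of the 10 genes, adding Phgdh, Psat1 and Sesn2, against 16.6% of all genes. The ER stress element, read as CCAAT, then 9 bases of any kind, then CCACG on either strand, is the site that ATF6 uses with NF-Y at chaperone genes. It was found in the promoters of 0 of the 10 and of 0.137% of all genes. A match is a description of letters in this window, and no binding was measured.

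None of the 9 measured genes differed by 2-fold or more between the pools on its brightest probe set. Their differences, log2 intensity in CR minus log2 intensity in AL, ran from -0.77 for Asns to 0.19 for Ppp1r15a, with a median of -0.09 against -0.02 over all 12644 measured genes. The counts were 0 of 9 at least 2-fold higher and 0 of 9 at least 2-fold lower, against 1.80% and 2.79% of measured genes. Of the 9, 6 lay below 0 and 3 above, against 52.1% and 47.4% of measured genes. Among the 6, Asns was measured only through its AL value, which fixes its direction. The middle 50% of measured genes ran from -0.29 to 0.23 and held 5 of the 9, Atf4, Trib3, Phgdh, Sesn2 and Ppp1r15a. The central 95%, from -1.04 to 0.89, held all 9. Across 4924 genes with several measured probe sets, the median SD of the differences within a gene was 0.288, a rough view of technical disagreement that the same 5 genes stayed under. These differences are relative to the typical gene, since scaling the arrays on their hybridisation control spikes moved the median of all measured genes to -1.04 (all spikes) or -0.40 (the cre spike alone) and put all 9 below 0.

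**Figure D1:**
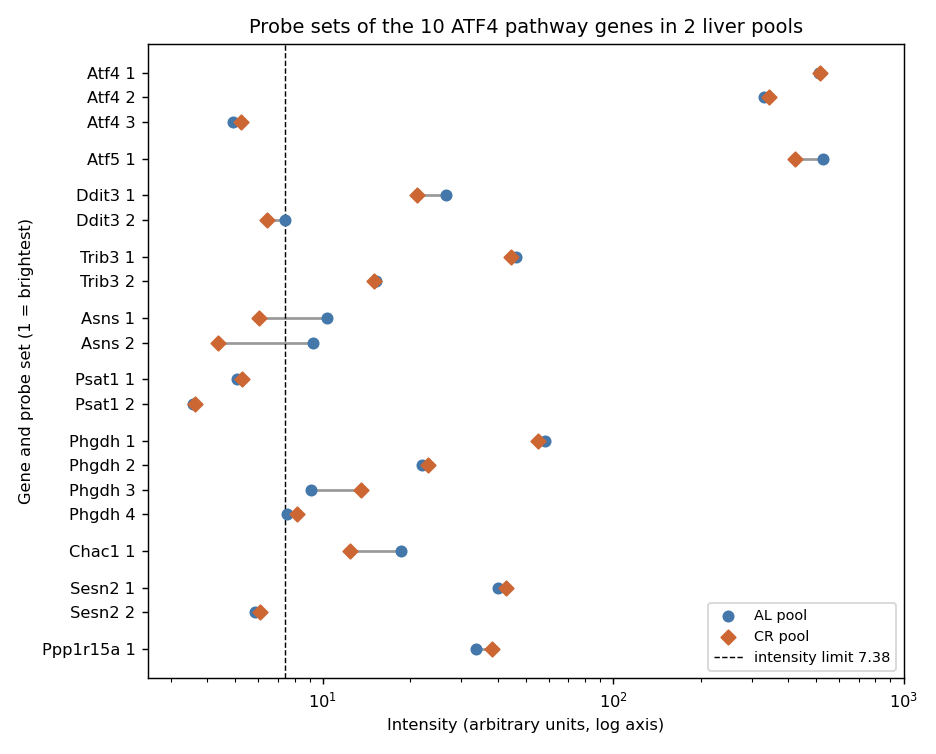
Intensity (log axis) of the 20 single-symbol probe sets of the 10 genes in the AL pool (circles) and the CR pool (diamonds), 1 array each, with the intensity limit of 7.38 as a dashed line. Most pairs of points lie close together; the widest gaps are those of Asns, both of whose CR values lie left of the limit, Chac1 and the third probe set of Phgdh.

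Atf4, the bZIP transcription factor at the centre of the response, had nearly equal intensities in the pools. Its brightest probe set read 512 in AL and 517 in CR, a difference of 0.01, and the next read 330 and 344, a difference of 0.06. The remaining probe set lay below the limit in both pools, at 4.91 and 5.24. Of all measured genes, 97.1% differed by at least as much as the brightest Atf4 probe set. Both well-measured probe sets of Atf4 thus gave the same picture, and its CR values were at or just above its AL values.

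Atf5 encodes a related bZIP factor, abundant in liver, whose mRNA is also translated more when eIF2 is phosphorylated. Its only probe set read 530 in AL and 422 in CR, a difference of -0.33, or 1.26-fold lower in CR. Of measured genes, 39.3% differed by at least as much.

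Ddit3 encodes CHOP, the C/EBP family factor induced late in ER stress. Its brightest probe set read 26.5 in AL and 21.1 in CR, a difference of -0.33. The other read 7.40 in AL, just above the limit, and 6.41 in CR, below it, with a difference of -0.21. The second counted as measured only through its AL value, which fixes its direction, so Ddit3 rests on its brightest probe set, 1.26-fold lower in CR.

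Trib3, a pseudokinase induced by ATF4 and CHOP that binds ATF4 in turn, was level between the pools on both of its probe sets. The brighter read 46.1 in AL and 44.4 in CR, a difference of -0.06, and the dimmer 15.2 and 15.0, a difference of -0.02. Trib3 had a TGATGNAA match like Asns and Chac1, and its difference was nearer to 0 than theirs.

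**Figure D2:**
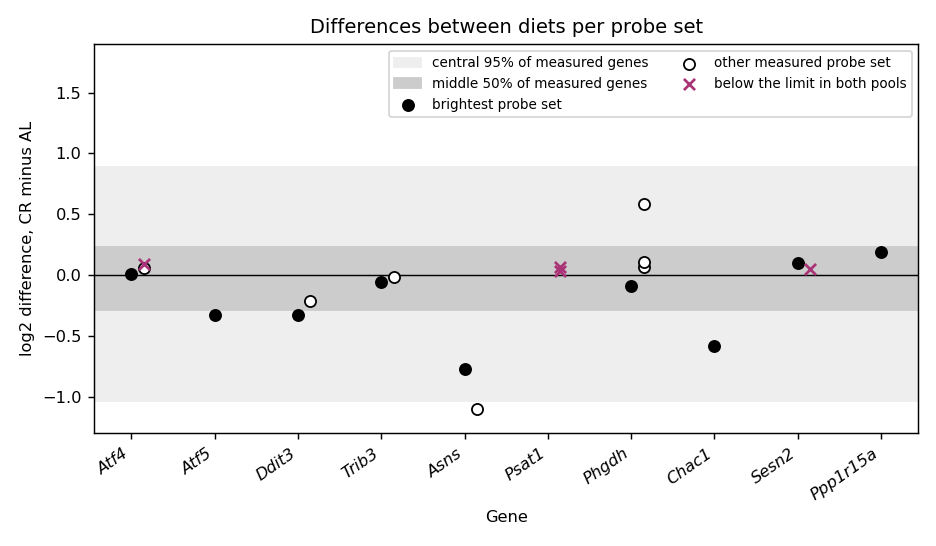
Difference in log2 intensity, CR minus AL, for each probe set of the 10 genes, over grey bands for the middle 50% (-0.29 to 0.23) and central 95% (-1.04 to 0.89) of measured genes. Filled points are the brightest probe sets, open points other measured ones, and crosses those below the limit in both pools; Asns and Chac1 sit lowest, and the 4 Phgdh points lie on both sides of 0.

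Asns, asparagine synthetase, which makes asparagine from aspartate and glutamine, had the lowest log2 difference of the 9 as measured, in dim signals that bound rather than fix its size. Its brightest probe set read 10.3 in AL and 6.04 in CR, a difference of -0.77, and 8.81% of measured genes differed by at least as much. The other read 9.27 in AL and 4.34 in CR, a difference of -1.10. Both CR values lay below the limit, so against the limit of 7.38 Asns was at least 1.40-fold lower in CR on the first probe set and at least 1.26-fold lower on the second. Asns counted as measured only through its AL value, and a gene that passes through 1 pool alone must differ in that direction. Its bound of 1.40-fold is smaller than the fold measured for Chac1, so Asns and Chac1 cannot be ranked. With 16 added to each intensity before taking logs, which damps dim signals, the difference of Asns was -0.26.

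Phgdh and Psat1 encode the enzymes of the first and the second step of serine synthesis from a glycolytic intermediate. Phgdh read 58.4 in AL and 55.0 in CR on its brightest probe set, a difference of -0.09. Its other single-symbol probe sets stood at 0.07, 0.58 and 0.11, the second of these from 9.08 in AL to 13.6 in CR. All 4 were of the x type, whose probes can match other transcripts, and averaging them turned the direction to 0.17. The SD over the 4 differences was 0.29, so the Phgdh probe sets disagreed by as much as the typical gene's. Psat1 was not measured, with 5.05 in AL and 5.28 in CR on one probe set and 3.56 and 3.63 on the other, both below the limit in both pools.

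Chac1, an enzyme that breaks down glutathione, was lower in the CR pool on its only probe set. It read 18.5 in AL and 12.4 in CR, a difference of -0.58, just under 1.5-fold. Of measured genes, 16.5% differed by at least as much. After adding 16 to each intensity the difference was -0.28.

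Sesn2 encodes a leucine sensor that holds back the growth kinase complex mTORC1. Its brighter probe set read 40.1 in AL and 42.8 in CR, a difference of 0.10, and the dimmer lay below the limit in both pools, at 5.84 and 6.06. Ppp1r15a encodes GADD34, the phosphatase subunit that reverses eIF2 phosphorylation and so ends the response. It read 33.7 in AL and 38.4 in CR on its only probe set, a difference of 0.19, the highest of the 9. Sesn2 and Ppp1r15a lay above 0 by less than the typical disagreement between probe sets of a gene, and below 0, at -0.92 and -0.83, after scaling on all spikes.

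Ordered by role, the members thus differed in size. The factors Atf4, Atf5 and Ddit3 stood at 0.01, -0.33 and -0.33, and the feedback genes Trib3 and Ppp1r15a at -0.06 and 0.19. The metabolic genes Asns, Chac1 and Phgdh stood at -0.77, -0.58 and -0.09, and the nutrient sensor Sesn2 at 0.10. No order beyond these single values can be read, since neither pool was repeated.

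The genes upstream of ATF4 also lay mostly close to 0. Of 17 measured genes of the eIF2 kinases, eIF2, its exchange factor eIF2B and its phosphatases, 0 were at least 2-fold higher and 1 was lower, beside the 1.80% and 2.79% of all measured genes, with a median of -0.10. That gene was the catalytic phosphatase subunit Ppp1ca at -1.02, from 96.4 in AL to 47.5 in CR. Ppp1r15b, the constitutive partner of Ppp1r15a that also directs the phosphatase to eIF2, stood at 0.84, from 263 to 469, and its other probe set at 0.56. The kinase inhibitor Dnajc3, an ER chaperone as well, stood at -0.71 with 5 probe sets from -2.02 to -0.68, and the eIF2B subunit Eif2b1 at -0.42. The kinase genes, named for their role with their values known, were Eif2ak3 (PERK) at 0.22, Eif2ak1 (HRI) at 0.19 and Eif2ak2 (PKR) at -0.08. Eif2ak4 (GCN2), the sensor of uncharged tRNA, was not measured, with 5.23 in AL and 4.85 in CR.

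Partners of ATF4 were spread more widely than the 10 genes. Of 12 measured genes of partner and related factors, 1 was at least 2-fold higher and 0 were lower, beside the same 1.80% and 2.79%, with a median of -0.13. The Wnt pathway factor Tcf7l2 stood at 1.28, but its 4 probe sets ran from -0.74 to 1.28. Cebpb, a C/EBP partner that binds the response element with ATF4, stood at 0.89, from 597 in AL to 1104 in CR, and its other probe set at -0.38. Atf3, a repressor that competes for ATF4 sites, stood at 0.68, from 15.3 to 24.4 on 1 probe set. Nupr1, a stress-induced chromatin protein, stood at -0.62 and -1.36 on its 2 probe sets.

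The wider programme of ATF4 was taken from 4 lists, for serine and one-carbon metabolism, cytosolic tRNA synthetases, amino acid transporters and other reported targets, not all of whose members are established targets. Without the 10 genes they held 71 measured genes of 78 with a probe set, of which 1 was at least 2-fold higher and 1 lower, or 2.82% in all against 4.59% of measured genes. Their median was -0.02, with 33 above 0 and 36 below, against 47.4% and 52.1% of measured genes. The higher one was the VLDL receptor gene Vldlr at 2.09, from 13.8 in AL to 58.7 in CR, with its other probe set at 0.07. The lower one was Cbs, the enzyme that joins homocysteine to serine, at -1.02, from 823 to 405, with its other probe set at -2.20. Fgf21, a fasting-induced hepatokine, stood at 0.83, from 14.6 to 25.8.

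The cytosolic tRNA synthetases, enzymes that charge tRNAs with amino acids, had the lowest median of these 4 lists. Of 19 measured, 12 were below 0 and 6 above, against 52.1% and 47.4% of measured genes. Their median was -0.36 and ran from -0.47 to -0.24 over the alternatives other than spike scaling. At the 2-fold size 0 were lower and 0 higher, against 2.79% and 1.80% of measured genes. The alanine enzyme gene Aars stood at -0.90, from 366 in AL to 196 in CR, and its other probe set at -0.80. Farsb, for phenylalanine, stood at -0.82 with probe sets up to 0.18, and Lars, for leucine, at -0.66. Wars and Nars, for tryptophan and asparagine, both stood at -0.64, with all their probe sets below 0. Of 19, 5 were at least 1.5-fold lower and 0 higher, against 9.49% and 6.76% of measured genes.

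**Figure D3:**
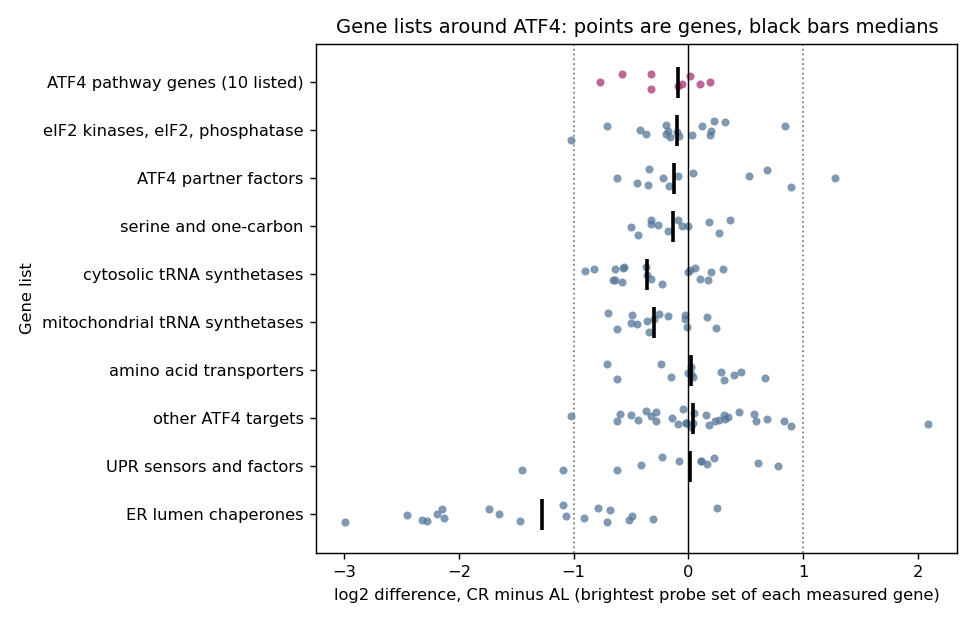
Difference in log2 intensity, CR minus AL, of the measured genes of each list (points, brightest probe set) with the list's median (black bar) and dotted lines at 2-fold. The 10 listed genes and most neighbouring lists centre near 0, the cytosolic tRNA synthetases at -0.36, and the ER lumen chaperones at -1.28.

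Of the 12 measured serine and one-carbon genes and 13 amino acid transporters, 0 were at least 2-fold different, against 4.59% of all measured genes. In lists this short a count of 0 is near that share. Of 12 measured serine, glycine and folate genes, 8 lay below 0, against 52.1% of measured genes, with a median of -0.13. These 12 include the member Phgdh, and without it the median was -0.18 over 11 genes. The largest differences were at Psph, the last enzyme of serine synthesis (-0.50), and the glycine cleavage enzyme Gldc (-0.44). Next came the serine hydroxymethyltransferase Shmt1 (0.36) and the mitochondrial folate enzyme Mthfd1l (-0.33). Of 13 amino acid transporters, 8 lay above 0 and 4 below, against 47.4% and 52.1% of measured genes. Their median of 0.02 became 0.35 over the 6 left at the stricter intensity limit and -0.36 after scaling on cre. The neutral amino acid transporter Slc1a4 stood at -0.71 with its other probe set at 0.46, the glutamine transporter Slc38a7 at 0.67, the lysosomal Slc36a1 at -0.62 and the cationic amino acid transporter Slc7a2 at 0.46.

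The TGATGNAA core was also counted in the promoters of the genes of these 4 lists. Of 58 with a probe set and a promoter, 15 held it, or 25.9%, against 4.51% of all genes. Of these 15, Slc7a11 was not measured. Below 0 lay Aars (-0.90), Slc1a4 (-0.71), Nupr1 (-0.62), Tars (-0.58), Iars (-0.56), Gars and Pck2 (both -0.33), Herpud1 (-0.28) and Jdp2 (-0.09). Above 0 lay Vldlr (2.09), Fgf21 (0.83), Atf3 (0.68), Got1 (0.15) and Yars (0.10). Pck2 passed the limit only in AL, which fixes its direction. The other probe sets of Slc1a4, Vldlr and Jdp2 stood at 0.46, 0.07 and 0.19. Over the whole array, the 292 measured genes with the core had a median difference of -0.06, with 2.74% at least 2-fold higher and 2.74% lower, 8 genes each. The 9868 without it had a median of -0.03, with 1.81% higher and 2.77% lower. No difference between these groups of genes was tested.

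The ER lumen chaperones, a neighbouring branch of the stress response that ATF6 and XBP1 drive, were set beside the 10 genes on the same 2 arrays. Of 20 chaperones, 12 were at least 2-fold lower in CR and 0 higher, with a median of -1.28, against 2.79% lower and 1.80% higher over all measured genes, and 0 of 9 and -0.09 for the ATF4 pathway genes. Hspa5, the chaperone BiP, read 4631 in AL and 1015 in CR on its brightest probe set, beside Atf4 at 512 and 517. The 3 measured Hspa5 probe sets ran from -2.35 to -0.30. The others of the 12 were Manf at -2.99, Pdia3 at -2.45 (other probe set 0.13), Creld2 at -2.32, Pdia6 at -2.28, Calr at -2.15, Sdf2l1 at -2.13, Pdia4 at -1.74, Dnajb11 at -1.65, Hyou1 at -1.47 (other probe set -0.39), Hsp90b1 at -1.09 and P4hb at -1.07. Pdia3 lay below the limit in CR and was at least 4.05-fold lower on that probe set. Of 12 measured unfolded protein response sensors and factors, 2 were at least 2-fold lower and 0 higher, against the same 2.79% and 1.80%. Their median was 0.01. The 2 lower ones were Xbp1 at -1.45, with 4 probe sets from -3.33 to -0.41, and Creb3l2 at -1.09 (other probe set -0.61). Nfe2l1 stood at 0.78 and Ern1 at -0.62, with 3 probe sets up to 0.06. The gap between the chaperones and the ATF4 pathway genes is a difference between lists in 1 pair of pools, and no test was possible. Both lists were chosen with earlier results of these data known, so the gap is a description only.

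**Figure D4:**
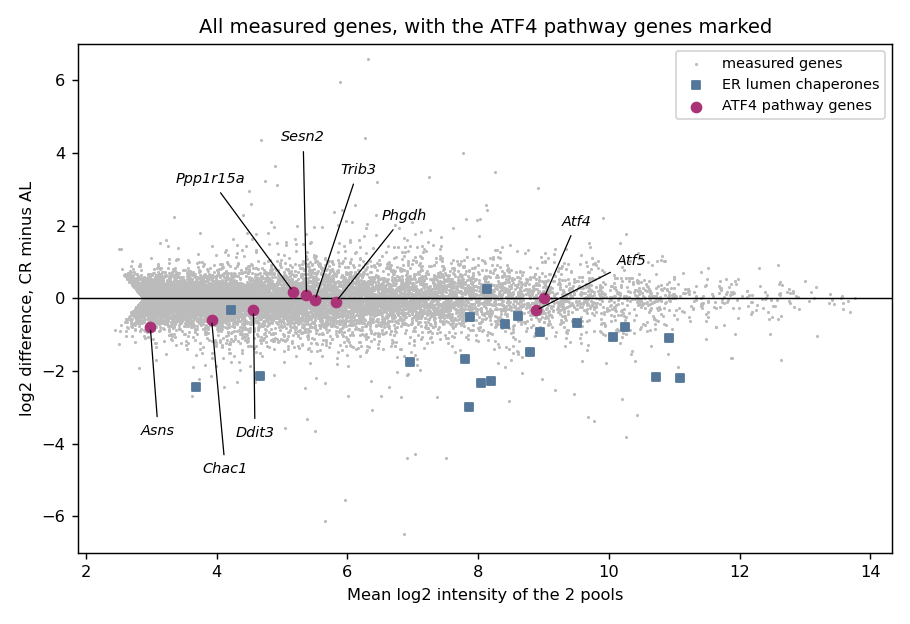
Difference in log2 intensity, CR minus AL, against mean log2 intensity for the 12644 measured genes (grey), the ER lumen chaperones (squares) and the 9 measured ATF4 pathway genes (labelled circles). The circles lie in the grey band near 0, from -0.77 to 0.19, and 12 of the 20 squares lie at or below -1.

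The samples carried a liver profile, with albumin (Alb) at 12765 in AL and 11794 in CR. Hepatocyte markers had a median difference of -0.07 over 10 genes, from the fibrinogen gene Fgb at -1.63 to Tat at 0.43. The erythroid marker Alas2, the only measured gene of its list, stood at -2.43. Its CR value of 7.43 lay just above the limit. Medians were -0.32 for 7 endothelial and -0.18 for 8 stellate cell markers. They were 0.13 for 3 lymphocyte, 0.21 for 4 bile duct and 0.09 for 2 adipocyte markers. Markers of Kupffer cells, the liver's macrophages, had 9 of 10 below 0, against 52.1% of measured genes. Their median was -0.54 and their summed intensity 2776 in AL and 2471 in CR. None stood at 0, and 1, Timd4, lay below the limit in CR, which fixes its direction. The 6 measured neutrophil markers, none at 0, summed to 136 and 56.2, with S100a8 at -2.29 and S100a9 at -1.75, and 2 of them, Lcn2 and Cxcr2, passed the limit only in AL, which fixes their direction. In bulk tissue, fewer cells of a type and less RNA per cell cannot be told apart, and the part of these cells in the lower Asns and Chac1 values was not tested. Control probe sets for the 3′ end of beta-actin outshone those for the 5′ end 83.5-fold in the AL pool and 89.7-fold in the CR pool, and those for the middle 11.1-fold and 20.4-fold. The part of this 3′ bias in the differences was not tested.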

How the data were processed

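The authors' deposited table held 1 intensity per probe set and pool, for which the submitters' processing notes name RMA. This method corrects background, normalizes between arrays and summarises probes. RMA usually returns log2 values, but the array medians were 7.35 (AL) and 7.42 (CR) and the highest value 18092, which is a linear scale. Version and options: not given in the sources used here. Per the labels' protocols, RNA was extracted with Trizol and 6 ug of total RNA was labelled with biotin. The table gave no detection calls, and depth does not apply to arrays. Precision is limited by having 1 array per diet.

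Intensities were turned to log2 and AL was subtracted from CR. Symbols came from the platform annotation of 2016, and all 10 member symbols were found under their Entrez IDs in the gene table of GRCm38.p6. Probe sets with several symbols were not used. For each gene the probe set with the highest mean log2 value was taken. At least 2-fold is a rule of size, not a test. All members are named, and in each other pathway list the 4 measured genes of largest absolute difference and all at 2-fold or more. Of marker lists only the genes at 2-fold or more and examples are named. For the wider ATF4 targets only examples and the genes with the TGATGNAA core are named. The members and lists were chosen with earlier results of these data known.

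Alternatives were the mean over probe sets, no probe sets ending in _x_at, _s_at or _a_at, no limit, a limit at the 75th percentile (21.0), median centring, loess removal (fraction 0.4), log2(intensity + 16), a 1.5-fold size and scaling on 18 hybridisation control probe sets. Scaling on the 4 cre probe sets was added after seeing the data. The differences per gene and the 2-fold counts were tested on simulated data, and the motif search on made-up strings. The simulated noise was smaller than the SD of 0.288 within real genes. No difference was planted in dim genes such as Asns and Chac1, or near 2-fold, so those cases were not covered. The other steps were not tested in this way. Software was matplotlib 3.10.9, statsmodels 0.14.6, pandas 2.3.3 and numpy 2.4.6 under Python 3.11.15.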

Additional observations from a re-analysis of the deposited data

How the results depend on the processing

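The count of ATF4 pathway genes at least 2-fold lower in CR was 0 and became 1 (Asns) with a 1.5-fold size, 7 after scaling on all hybridisation controls and 1 after scaling on cre alone, while 9.49%, 54.2% and 8.15% of all measured genes were lower by that rule. Their median of -0.09 became -1.10 and -0.46 under these scalings, which shift every gene by the same amount, 1.02 and 0.37. No alternative gave a member 2-fold higher. Asns counted as 1.5-fold lower by its measured values. It passed the limit only through its AL value, which fixes its direction, and its bound was 1.40-fold. Under the other planned settings the median and the members that had a value kept within 0.288 of the reported values, except Asns and Chac1 at -0.26 and -0.28 with 16 added. Without probe sets ending in _x_at, _s_at or _a_at, Atf5, Trib3 and Phgdh had no value. Psat1 was reached only with no limit, and at the stricter limit 7 of the 9 were tested, without Asns and Chac1. Leaving out a replicate was not possible. No paired analysis was possible because each group had 1 sample. Dim signals limit Asns, Chac1 and Psat1 most.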

Other observations

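Genes next to the members in family or pathway showed values not given above. Among the CHOP target genes, the cell death gene Bcl2l11 had a difference of 2.46, from 58.9 in AL to 325 in CR, although its 3 measured probe sets reached down to -0.03. The tryptophan enzyme Wars stood at -0.64, the ER oxidase Ero1a at 0.58 (3 probe sets from -0.17 to 0.61) and the cell death gene Bbc3 at 0.34. Among factors of the ATF and CREB families, Atf3 stood at 0.68, Atf2 at -0.62, Atf6 at 0.61 and Creb1 at 0.55. The 3 probe sets of Atf2 ran from -0.90 to 0.30 and the 3 of Atf6 from -0.07 to 0.61. Among genes of asparagine and glutamine metabolism, the asparaginase-like gene Asrgl1 stood at 1.14, from 30.2 in AL to 66.5 in CR, with probe sets from 0.15, while Asns, which makes asparagine, stood at -0.77. Glud1, the glutamate dehydrogenase, stood at -0.97 with its other probe set at -0.26, and the alanine aminotransferase Gpt at 0.77. The glutathione reductase Gsr stood at -0.92 and the oxoprolinase Oplah, which acts downstream of Chac1 products, at 0.75, and the glutamate-cysteine ligase subunit Gclm at -0.29. Of 15 measured mitochondrial tRNA synthetases, 13 lay below 0, against 52.1% of measured genes, with a median of -0.30. The serine enzyme Sars2 stood lowest at -0.70, then Cars2 at -0.62, Hars2 at -0.50 and Rars2 at -0.49. The Sesn2 relatives Sesn1 and Sesn3 stood at 0.27 and -0.33, and the Trib3 relative Trib1 at -0.21. A further list held genes of the GATOR, Rag and mTOR complexes, through which sestrins act, and other mTORC1 regulators such as Tsc1, Ddit4 and Ddit4l. Of its 17 measured genes, 9 lay above 0 and 8 below, against 47.4% and 52.1% of measured genes. Their median was 0.12, with the largest differences at Rraga (-0.89), Nprl3 (-0.83), Sec13 (-0.82) and Ddit4l (0.54). Each is a single comparison of 2 pools with no replicate check, and after scaling on all hybridisation controls every list named here had a median below 0.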
